A study of Mus musculus with 7 samples.

Results

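The mouse miRNAs described here carry late serial numbers: 1012 of the 1914 mouse miRNA rows counted in each library are numbered 1900 or higher. Of those 1012 rows, 424 had no read in any library, 487 had between 1 and 49 reads over the 7 libraries, and 101 had 50 or more. The 95 miRNAs analysed are those with 50 or more reads, after 6 rows of miR-1912, miR-1981, miR-3070, miR-3071 and miR-3072 were left out by the selection rule. The members were selected on their summed read count, so their being detected is no finding. The members nearest above the limit were miR-3473d and miR-6977-3p with 50 reads each and miR-3470a with 51. Those nearest below it were miR-7006-3p with 47 reads and miR-1968-5p and miR-7235-3p with 46 each.

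A miRNA is cut from a hairpin in a longer transcript, in most cases by the nuclear enzyme Drosha and then by Dicer, and the product of either arm (5p or 3p) can be loaded into an Argonaute protein. Bases 2 to 8 of the loaded strand, the seed, pair with target mRNAs. In mirtrons a short intron forms the hairpin and splicing takes over the work of Drosha, so that an end of the hairpin is an end of the intron. Introns end almost always in AG. The miRNA registry numbers entries in order of submission, so late numbers collect miRNAs reported mainly from deep sequencing.

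Small RNA was sequenced from lateral ventricles and choroid plexus, the epithelium that secretes cerebrospinal fluid, of adult mice of strain C57BL/6J. There were 4 libraries of the genotype TAp73 Knock-out and 3 of the genotype Wild-type, with no treatment named in the labels. The gene Trp73 encodes p73, a transcription factor related to p53, and TAp73 denotes its isoforms with a transactivation domain, which act in the formation of multiciliated cells. The labels do not say which exons are deleted, whether every library came from a separate animal, or whether tissue was pooled, so each p-value below rests on the scatter among libraries, which may be technical. Messenger RNA was not measured, so loss of Trp73 could not be checked.

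Depth ran from 955057 to 9233235 mouse miRNA reads, lowest in knockout replicate 3 and highest in knockout replicate 1. Levels are given as reads per 1000000 mouse miRNA reads (CPM), and a count of 0 allows up to 3 reads, which is 3.14 CPM in knockout replicate 3 and 0.325 CPM in knockout replicate 1. The choroid plexus markers miR-204 and miR-211 were present in every library and summed to 2015 to 11789 CPM, lowest in wild type replicate 2 and knockout replicate 3. The 6 multiciliated cell markers, arms of miR-34b, miR-34c, miR-449a and miR-449c, summed to 385 to 760 CPM in knockouts and 1291 to 3675 CPM in wild types. The neuronal markers miR-124-3p and miR-128-3p summed to 25393 to 28395 CPM in knockouts and 14099 to 24922 CPM in wild types. The marker sums thus differed between libraries. In bulk tissue, fewer cells of a type and less RNA per cell cannot be told apart.

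The mature sequences below are shown because they belong to the most abundant members, whose levels follow. They are those of the 8 of the 10 most abundant members that have an entry in the RefSeq miRNA table (build GRCm38.p6), with the seed in capitals.
miR-3059-5p: uUUCCUCUcugccccauagggu
miR-3099-3p: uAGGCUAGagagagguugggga
miR-3963: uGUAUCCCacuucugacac
miR-1983: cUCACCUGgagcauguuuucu
miR-3475-3p: uCUGGAGGcacaugguuugaa
miR-3068-3p: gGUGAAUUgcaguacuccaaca
miR-6944-3p: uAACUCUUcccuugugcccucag
miR-3082-3p: cACAUGGCacucaacucugcag
Of the 95 members, 82 had a mature sequence in that table, and these 82 held 82 different seeds. Among these 82 no seed was shared between members. None was shared with those of the 50 most abundant mouse miRNAs that have a sequence in that table, and abundant miRNAs without one were not compared. For 69 members the seed occurred in no other mouse miRNA row with a sequence. Among the other 13, miR-1943-5p shared its seed with miR-149-3p, miR-5129-3p with miR-455-5p and miR-1983 with miR-412-3p. The seeds of the 13 members without an entry were not compared. miR-5099 and miR-3065-3p, the other 2 of the 10 most abundant, are named without a sequence.

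In all, the 95 miRNAs held 67951 of 30322137 mouse miRNA reads. Their summed level was 2409, 2040.0, 2632 and 2322 CPM in knockout replicates 1 to 4 and 1954, 2099 and 2350.4 CPM in wild type replicates 1 to 3. The groups overlapped, with a knockout mean of 2351 ± 245 CPM (SD, n = 4) against 2134 ± 200.5 CPM (SD, n = 3). The difference of 0.14 on the log2 scale was smaller than the pooled SD of 0.15, and without miR-5099 it was -0.03. No test was made of a sum over members chosen with these data known.

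Single members were scarce. The median member had a mean level of 6.58 CPM over the 7 libraries, against 45.6 CPM for the 455 rows numbered under 1900 that met the same read minimum. Only 5 members exceeded 100 CPM, 36 reached 10 CPM, and none was among the 50 most abundant mouse miRNAs. All 7 libraries had reads of 86 members, and 9 members had none in knockout replicate 3, where 1 read is worth 1.05 CPM. Numbers in the 3000s contributed 36 of 155 rows and 50.2% of the members' summed CPM. Numbers in the 6000s contributed 25 of 322 rows, and those from 7000 up 22 of 395.

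Reads were concentrated in a few members: 7 made up 50% of the summed CPM and 39 made up 90%. miR-5099 was the most abundant, at rank 104 among all mouse miRNAs. It was at 406.8, 390.2, 858 and 675 CPM in knockout replicates 1 to 4 and 291, 383 and 325 CPM in wild type replicates 1 to 3. Every knockout library was above every wild type library, and knockout replicates 3 and 4 stood well above the others.

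miR-3059-5p lies in an intron of Mgat4c, a gene of the N-acetylglucosaminyltransferase family, at chr10:101772704-101772725 on the plus strand. Its level was 155, 142, 204 and 119 CPM in knockouts and 175, 147 and 171 CPM in wild types, with full overlap. miR-3099-3p lies in an intron of Usp29, an imprinted gene for a ubiquitin peptidase, at chr7:6803638-6803659 on the plus strand. It was at 155, 102, 115 and 106 CPM in knockouts and 92.7, 104.4 and 194.9 CPM in wild types, highest in wild type replicate 3. Between miR-3059-5p and the next members in rank (miR-3099-3p, miR-3963 and miR-1983, at 159 ± 27.4, 124 ± 37.2, 110 ± 32.7 and 102 ± 10.5 CPM; SD, n = 7), the ranges over the 7 libraries overlapped from each to the next. Their order is therefore not firm.

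miR-1983 lies within a tRNA gene that RefSeq names n-TItat14, at chr13:21896930-21896950 on the minus strand. It was at 101, 99.1, 114 and 118 CPM in knockouts and 98.2, 99.9 and 86.9 CPM in wild types. miR-3963, at chr3:151023839-151023857 on the minus strand outside annotated genes, was at 173 CPM in knockout replicate 1 and between 107 and 108 CPM in the other knockouts. In wild types it was at 62.3, 110.3 and 98.4 CPM, so that wild type replicate 2 lay above 3 knockouts.

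Some members were steadier than others. Over the 29 members with 500 or more reads, the coefficient of variation across the 7 libraries had a median of 20.3%. It was lowest for miR-3082-3p, at 5.45%, and highest for miR-3547-3p, at 88.2%. miR-3082-3p ranged only from 58.6 to 68.1 CPM. miR-3068-3p, which lies in a hairpin that GENCODE also annotates as a snoRNA, within the nucleic acid demethylase gene Alkbh1, ranged from 82.3 to 104.4 CPM.

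**Figure D1:**
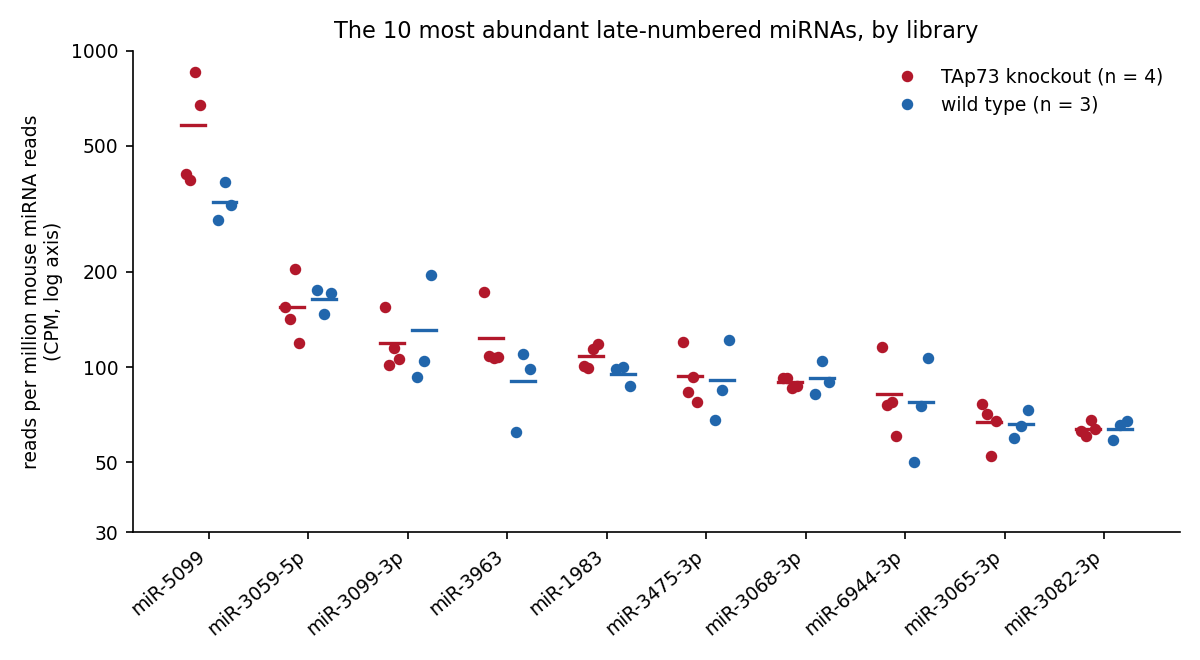
CPM (log axis) of the 10 most abundant late-numbered miRNAs in each library; points are libraries, 4 TAp73 knockouts and 3 wild types, and horizontal lines are group means. Only miR-5099 has every knockout library above every wild type library.

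Many 3p arms of the members shared a position, the end of an intron. The names give the 3p arm for 55 members, the 5p arm for 20 and no arm for 20. Of the 47 members named 3p with a genome position, 29 (61.7%) ended within 2 bases of the 3′ end of an annotated intron on the same strand (GENCODE M21, GRCm38). Of these, 24 ended exactly on the intron's last base, 3 ended 1 base short of it, 1 ended 2 bases short and 1 ended 1 base past it. The 24 exact arms all ended in AG, 23 of them in CAG. No other member with a sequence ended in AG.

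Intron ends were as frequent among late-numbered 3p arms with fewer reads, at 120 of 192 (62.5%) with 1 to 49 reads. The share was 45 of 103 (43.7%) for those with no reads and 3 of 202 (1.49%) for 3p arms numbered under 1900 with 50 or more reads. None of the 17 member 5p arms with a position began within 2 bases of the 5′ end of an intron. Among late-numbered 5p arms, 7 of 175 (4%) with 1 to 49 reads and 13 of 150 (8.67%) with no reads did. For 5p arms numbered under 1900 with 50 or more reads it was 2 of 192 (1.04%). The share at an intron's 3′ end was thus high among late-numbered 3p arms whether or not they had 50 reads, and low among earlier numbers. No test was made, since the shares describe how the rows are annotated.

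The following arms are printed with their last 3 bases in capitals, since these lie at the end of the host intron. They are the 8 most abundant arms of the kind, in order of level, and miR-6911-3p and miR-7046-3p, which are among the members named in the comparison of genotypes below.
miR-6944-3p: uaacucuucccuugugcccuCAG
miR-3082-3p: cacauggcacucaacucugCAG
miR-3102-3p: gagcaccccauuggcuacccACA
miR-7019-3p: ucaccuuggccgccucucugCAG
miR-3547-3p: ugagcaccaccccucucuCAG
miR-7068-3p: ucacccuggacugacucuCAG
miR-7015-3p: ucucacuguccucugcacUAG
miR-7047-3p: ucacccucacccuuccuccuUCC
miR-7046-3p: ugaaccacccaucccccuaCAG
miR-6911-3p: ucaaucacacucuguccaCAG
Of these, miR-3102-3p stops 1 base and miR-7047-3p 2 bases short of the intron's end, and neither ends in AG. By contrast, the arms of abundant members elsewhere, such as miR-3059-5p and miR-3475-3p above, end in other bases.

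The introns belong to genes of varied function. miR-6944-3p (chr13:55477681-55477703, minus strand) lies in Dbn1, which encodes the actin-binding protein drebrin. It was at 116, 75.7, 77.5 and 60.6 CPM in knockouts and 50.04, 75.5 and 107 CPM in wild types. miR-3082-3p (chr17:25831366-25831387, minus strand) lies in Stub1, which encodes the ubiquitin ligase CHIP. miR-7019-3p (chr4:138316132-138316154, minus strand) lies in Pink1, which encodes a mitochondrial kinase. It was among the steadiest members, at 45.6 ± 2.92 CPM (SD, n = 7). Where a transcript that keeps the intron is annotated, as for Stub1 and Pink1, the arm also counts as exonic. In total these 29 arms held 18.3% of the members' reads. Their summed level was 430.0, 372, 408 and 356 CPM in knockouts and 399, 404.2 and 514 CPM in wild types, with overlap.

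**Figure D2:**
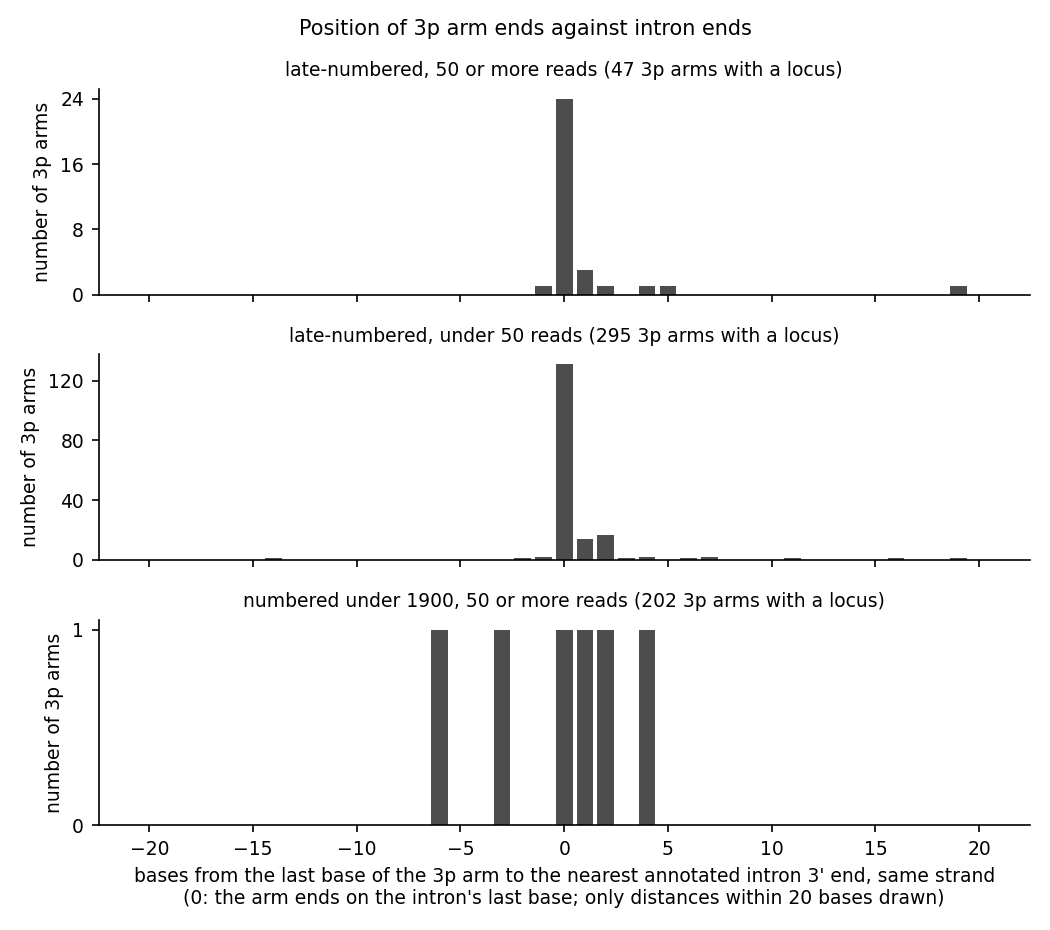
Number of 3p arms (y axis) by distance in bases from the arm's last base to the nearest annotated intron 3′ end on the same strand (x axis), for members, for late-numbered arms under 50 reads and for arms numbered under 1900 with 50 or more reads. Among members, 24 of 47 arms sit at distance 0, and only distances within 20 bases are drawn.

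The hairpins of the 29 arms at intron ends were used almost entirely on the 3p side. They held 66 reads of the 5p arm against 12450 of the 3p arm, a 5p share of 0.527%. The 5p arm had no read in 10 of them, and its largest share was 13.3%. The median 5p share over the 29 was 0.21%. In the 18 hairpins whose 3p member had another position, the 5p arm held 2580 reads against 14046, or 15.5%, and the median share was 1.58%. Most of those 5p reads, 2361, came from miR-6540, miR-3068, miR-3083 and miR-3061, and the other 14 hairpins held 219 against 10659, or 2.01%. In 8 further hairpins, whose 3p member has no sequence in the table, the share was 3.26%. Since 3p members were chosen for their reads, the excess of the 3p arm is in part built in, and the shares are given as a description. The reverse occurred in miR-6896, whose 5p arm is the member. Its 3p arm stops 2 bases short of an intron's end but had 0 reads, against 637 of the 5p arm.

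The other 53 members with a position were placed in several kinds of gene. Another intron on the same strand held 18, another exon 10, a snoRNA or scaRNA gene 8 and a tRNA gene 1. A further 9 lay outside genes and 7 only antisense to one. An exon of any annotated transcript counted, also where another transcript has an intron. The exon group thus includes miR-7080-3p, miR-3057-5p, miR-3102-3p.2-3p and miR-3102-5p.2-5p. These lie 4, 28, 24 and 61 bases before an annotated intron 3′ end. The snoRNA and scaRNA genes, which guide chemical marks on ribosomal and spliceosomal RNA, include Snora19, at 1 of 2 loci of miR-3084-3p, Snord33, with miR-5121, and Scarna13, with both arms of miR-3069. miR-3535 lies in a snoRNA gene within Ncl, the nucleolin gene. The 8 members of this kind summed to 196, 192, 196 and 196 CPM in knockouts and 213, 209.8 and 194 CPM in wild types. That sum varied little among knockouts, with an SD of 2.02 CPM around 195 CPM (n = 4). Much of it came from the arms of miR-3068, with means of 90.6 CPM (3p) and 29.2 CPM (5p) over the 7 libraries. These are in the group because GENCODE annotates Mir3068 itself as a snoRNA. How the counting divided reads between a miRNA and a snoRNA or tRNA at the same place is not given in the sources used here.

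Runs of bases are shared by a few members without a shared seed. miR-3968 and miR-5100 both hold CGAAUCC, and miR-3968 and miR-3963 both hold AUCCCAC; both runs were chosen after the sequences were seen.
miR-3963: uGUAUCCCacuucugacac
miR-3968: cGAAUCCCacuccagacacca
miR-5100: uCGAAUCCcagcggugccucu
Searched on the strand of the mature RNA, the first run occurred in 2 of 1614 mouse miRNA rows with a position (0.12%) and the second in 4 (0.25%). A run is a description of the letters and names no source. miR-3470b stood apart, since its sequence also occurred in transcripts of 546 other genes. Its reads cannot be assigned to a locus.

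Several hairpins lie close to, or opposite, hairpins of better-known miRNAs. miR-3065 lies opposite Mir338, and miR-338-3p is a marker of oligodendrocytes. miR-3544 lies opposite Mir337. miR-3552 lies in an intron of the serotonin receptor gene Htr2c, a gene strongly expressed in choroid plexus, near Mir764 and Mir1912. miR-3093 lies near Mir9-1.

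Both arms had 50 or more reads in 7 hairpins, and the arm with more reads differed between them. For miR-6540 the 5p arm held 1078 reads against 122 pooled over libraries, or 89.8%, and for miR-3083 it held 247 against 57, or 81.2%. For miR-3069, with 61 and 70 reads, the 5p share varied widely, from 36.4% to 100% in knockouts and at 76.2%, 44.4% and 24% in wild types. These shares rest on few reads: the 100%, in knockout replicate 3, on 2 against 0, and the 44.4% on 4 against 5. The 3p arm led in miR-3061, miR-3068, miR-3065 and the second pair of miR-3102 (miR-3102-5p.2-5p and miR-3102-3p.2-3p), where the 5p shares were 31.6%, 23.1%, 3.78% and 6.45%. The arms of miR-3061 and miR-3068 are shown with their seeds in capitals, because either arm of these hairpins was present at a sizeable share.
miR-3061-5p: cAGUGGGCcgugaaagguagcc
miR-3061-3p: cUACCUUUgauaguccacugcc
miR-3068-5p: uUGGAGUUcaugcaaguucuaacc
miR-3068-3p: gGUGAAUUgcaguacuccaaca
The 5p share of miR-3061 was 30.8%, 29.2%, 38.1% and 28.2% in knockouts and 45.7%, 31.7% and 32.8% in wild types. That of miR-3068 was 20.8%, 20.3%, 24.1% and 26.6% in knockouts and 32.1%, 22.2% and 24.5% in wild types. In both hairpins the groups overlapped, with wild type replicate 1 the highest.

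miR-3102 gave 3 products with 50 or more reads, in a row on the minus strand of chromosome 7, in the gene Arhgef17. From the 5′ side these are miR-3102-5p.2-5p (chr7:100882367-100882387), miR-3102-3p.2-3p (chr7:100882330-100882350) and miR-3102-3p (chr7:100882307-100882329). The last 2 abut with no base between them. They are printed for this reason, with the seed in capitals.
miR-3102-3p.2-3p: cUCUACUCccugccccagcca
miR-3102-3p: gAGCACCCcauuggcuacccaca
miR-3102-3p ends 1 base short of the intron's end. Its mean level of 52.7 ± 12.1 CPM compared with 38.6 ± 4.73 CPM for miR-3102-3p.2-3p (SD, n = 7).

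Over all 68 member hairpins with a row for each arm, 33 had more than 99% of their reads on a single arm and 53 had more than 95%. The arm with more reads was 3p in 53 and 5p in 15, and 1 arm had no read in 21. The log2 ratio of 5p to 3p reads was compared between genotypes with limma in the 27 of these hairpins that had enough reads, within a fit of 237 hairpins. No member hairpin was called at an adjusted p under 0.05, against 0 percent of all hairpins tested. At an unadjusted p under 0.05 there were 2 of the 27, against 5 of all 237 (2.11 percent), which include these 2. The share is larger among members but rests on those 2 hairpins.

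The first of these was miR-6769b. Its 5p share was 20%, 20.7%, 0% and 35.7% in knockouts and 0%, 5.26% and 0% in wild types. The 3 deeper knockout libraries were the highest, but the shares rest on 19 reads of the 5p arm and 99 of the 3p arm in all, and knockout replicate 3 had 1 read in all. The log2 ratio was higher in knockouts by 2.59 (95% interval 1.72 to 3.47; limma adjusted p = 0.053). The other was miR-3084, at 2.67%, 2.75%, 0% and 4.26% in knockouts and 7.61%, 6.67% and 6.41% in wild types. These groups did not overlap, on 29 reads of the 5p arm, and the difference of -1.45 missed the threshold (95% interval -2.37 to -0.53; limma adjusted p = 0.87).

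**Figure D3:**
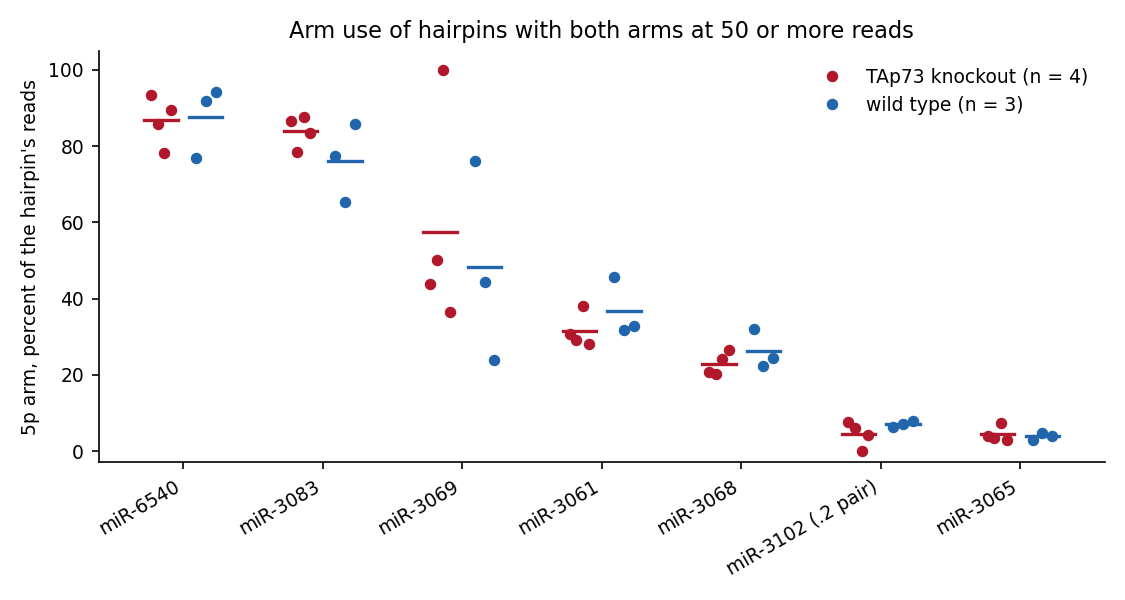
Percent of a hairpin's reads on the 5p arm (y axis) in each library for the 7 hairpins with both arms at 50 or more reads; points are libraries and lines are group means. The shares run from above 75% for miR-6540 to below 10% for miR-3065, with overlap between genotypes in each hairpin.

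By edgeR, none of the late-numbered miRNAs was called as different between TAp73 knockout and wild type. The edgeR quasi-likelihood test with Benjamini-Hochberg adjustment over the 534 mouse miRNAs tested covered 78 of the 95 members, and 17 fell below its filter on low counts. It called 0 members at an adjusted p under 0.05, against 1.12 percent of all miRNAs tested, while DESeq2 on the same rows called 1 member and limma-voom 0. The 1.12 percent belongs to the edgeR fit alone, and no such share is given for DESeq2, limma-voom or the alternatives below. In the edgeR fit, 7 members had an unadjusted p under 0.05, or 8.97% of those tested, against 12.9 percent of all miRNAs tested. Of the 7, 4 were higher in knockouts (background 6.18 percent) and 3 lower (background 6.74 percent). Each of these shares was below the background.

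Log2 fold changes, knockout minus wild type, ran from -1.62 to 0.98 and had a median of 0.08, against -0.02 over all miRNAs tested. They were positive in 49 members and negative in 29, and 64 of the 78 lay within 0.5 of 0. Scaling by library totals alone gave 39 positive and 39 negative. The median SE was 0.31 and the median half-width of the 95% interval 0.67, so for the median member differences below that size were not resolved. Groups did not overlap in 7 of the 78 members, against 11.8 percent overall: 2 had every knockout above every wild type (background 3.56 percent) and 5 had every knockout below (background 8.24 percent).

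**Figure D4:**
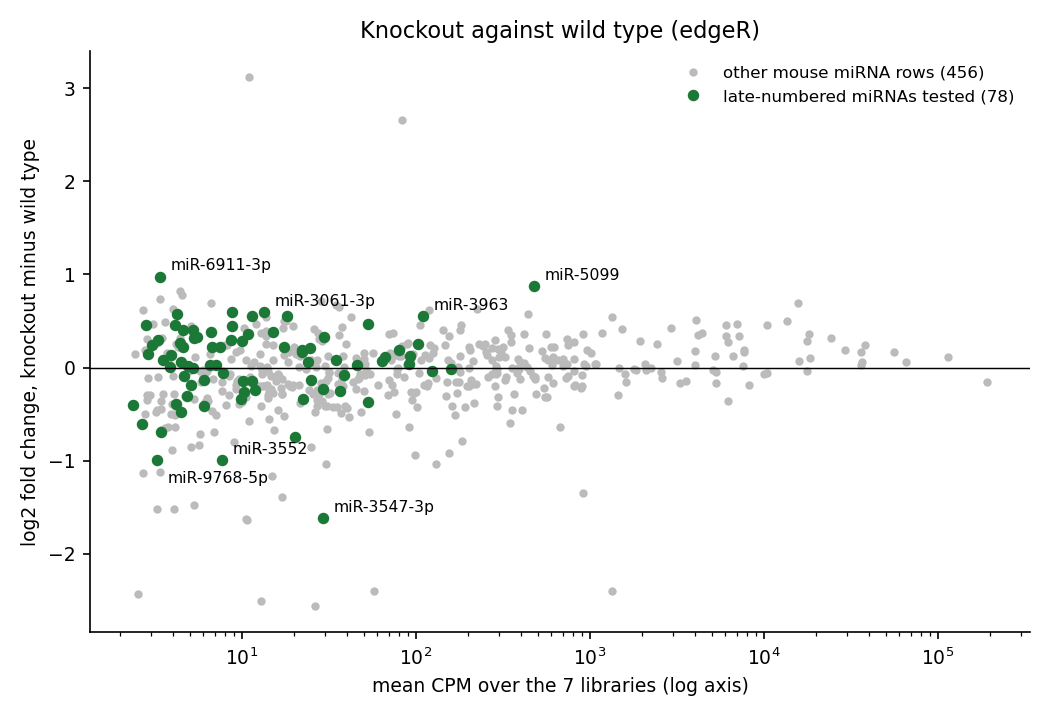
Log2 fold change of knockout minus wild type from edgeR (y axis) against mean CPM over the 7 libraries (x axis, log scale) for 78 late-numbered miRNAs and 456 other mouse miRNAs; named points have an unadjusted p under 0.05. Most late-numbered miRNAs lie within 0.5 of 0.

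miR-3547-3p had the smallest p among the members. It ends on the last base of an intron of Baiap3 (chr17:25245551-25245571, minus strand), a gene that acts in the release of dense-core vesicles. Its level was 21.3, 11.7, 15.7 and 10.3 CPM in knockouts and 31.5, 28.9 and 84.5 CPM in wild types. All knockouts were below all wild types, and wild type replicate 3 was far above the rest. The means were 14.8 ± 4.94 CPM (SD, n = 4) and 48.3 ± 31.3 CPM (SD, n = 3).

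The log2 fold change of miR-3547-3p was -1.62 ± 0.38 (SE; edgeR adjusted p = 0.094), which missed the threshold. It was called by DESeq2 (adjusted p = 0.0047), by edgeR without a filter on low counts (adjusted p = 1.8e-06), without wild type replicate 2 (edgeR adjusted p = 0.042), and without that library and knockout replicate 3 together (edgeR adjusted p = 0.046). Over all alternatives the adjusted p ran from 1.8e-06 to 0.33. Without wild type replicate 3 the log2 fold change was -0.97 (edgeR adjusted p = 0.25). That library also had the highest sum of the pituitary markers miR-7a-5p and miR-375-3p, at 1234 CPM against 260 to 553 CPM in the others. Its sums of the choroid plexus, multiciliated cell and oligodendrocyte markers were the highest too, at 11789, 3675 and 680 CPM. Its sum of the neuronal markers was the lowest, at 14099 CPM. The multiciliated cell markers also had every knockout below every wild type, at 385 to 760 against 1291 to 3675 CPM. The part of these marker sums in the result was not tested.

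miR-5099, whose level is given above, averaged 582 ± 225 CPM over the knockouts (SD, n = 4) against 333 ± 46.7 CPM over the wild types (SD, n = 3). Its log2 fold change was 0.87 ± 0.26 (SE; edgeR adjusted p = 0.21), which is not a call. Without a filter on low counts it was called (edgeR adjusted p = 0.00011), and over the other alternatives the adjusted p ran from 0.066 to 0.55. Knockout replicate 3, its highest library, is the shallowest. It had the highest sums of the erythrocyte and leukocyte markers, at 5198 and 505 CPM against 3751 to 4318 and 288 to 387 CPM elsewhere. It also had the highest neuronal sum (28395 CPM) and the lowest sums of the multiciliated cell and endothelial markers (385 and 785 CPM). Its oligodendrocyte and pituitary sums were the lowest too (356 and 260 CPM). Its choroid plexus sum, 2016 CPM, was level with the lowest, 2015 CPM in wild type replicate 2. Knockout replicate 4, the next highest for miR-5099, had erythrocyte and leukocyte sums of 3903 and 316 CPM, within the range of the other libraries. The part of these sums in the result was not tested. Without knockout replicate 3 the log2 fold change was 0.63.

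Of the other members with an unadjusted p under 0.05, 3 were higher in knockouts. miR-6911-3p, at the end of an intron of Dazap1, an RNA-binding protein gene, was at 5.09, 4.42, 2.09 and 4.90 CPM in knockouts and 1.85, 2.26 and 3.02 CPM in wild types. All but knockout replicate 3 were above the wild types, and the log2 fold change was 0.98 ± 0.37 (SE; edgeR adjusted p = 0.37). miR-3061-3p lies in an untranslated exon of Ppp2ca, the gene for a catalytic subunit of protein phosphatase 2A (chr11:52126804-52126825, plus strand). It was at 19.5, 13.2, 13.6 and 14.4 CPM in knockouts and 9.27, 12.7 and 10.7 CPM in wild types. The groups did not overlap, with a log2 fold change of 0.60 ± 0.25 (SE; edgeR adjusted p = 0.38). The 5p arm of the same hairpin overlapped between groups, at 0.22 ± 0.31 (SE; edgeR adjusted p = 0.78). miR-3963, given above, had a log2 fold change of 0.55 ± 0.25 (SE; edgeR adjusted p = 0.38), and 0.33 without knockout replicate 1.

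Lower in knockouts by the same measure were miR-3552 and miR-9768-5p. miR-3552, in the Htr2c intron (chrX:146999424-146999444, plus strand), was at 6.93, 4.42, 4.19 and 4.90 CPM in knockouts and 5.56, 8.59 and 19.2 CPM in wild types. The groups overlapped, and wild type replicate 3 was the highest. Its log2 fold change of -0.997 ± 0.39 (SE; edgeR adjusted p = 0.38) was -0.33 without that library. The choroid plexus markers were also highest in wild type replicate 3, at 11789 CPM, and summed to 2015 CPM in wild type replicate 2. Those of multiciliated cells, oligodendrocytes and pituitary were highest in wild type replicate 3 as well. Their part in the result was not tested. miR-9768-5p, in an untranslated exon of Mcf2l, was at 2.166, 2.73, 0 and 3.09 CPM in knockouts and 4.08, 3.62 and 7.13 CPM in wild types. A count of 0 in knockout replicate 3 allows up to 3.14 CPM, and the log2 fold change was -0.99 ± 0.44 (SE; edgeR adjusted p = 0.38).

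**Figure D5:**
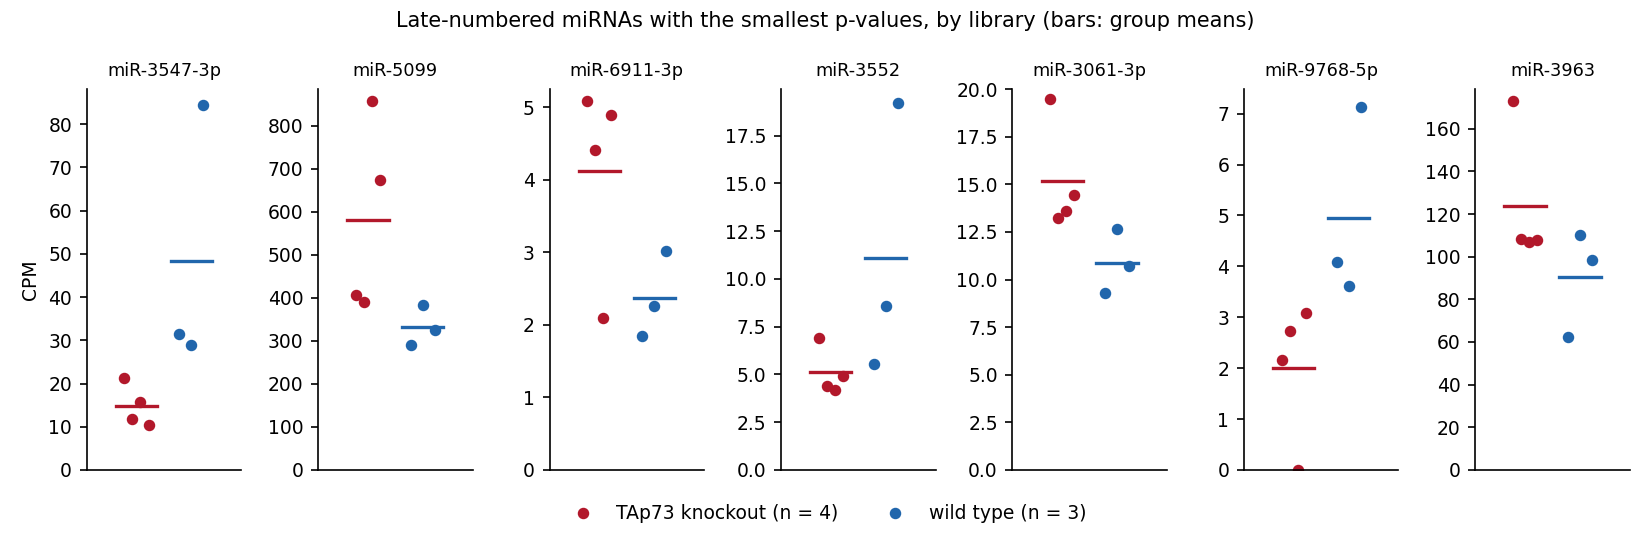
CPM (y axis, from 0, with a scale of its own for each miRNA) in each library for the 7 members with an unadjusted p under 0.05; points are libraries and bars are group means. miR-3547-3p and miR-3552 are highest in a single wild type library, at 84.5 and 19.2 CPM.

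The smallest p-values after these were those of miR-3057-5p and miR-7046-3p among members higher in knockouts, and of miR-6236, miR-3102-3p and miR-6896-5p among members lower. miR-3057-5p, in the adaptor gene Apba3, 28 bases before an annotated intron 3′ end, had a log2 fold change of 0.47 ± 0.22. That of miR-7046-3p, at an intron end of Rabac1, was 0.60 ± 0.29. Those of miR-6236, miR-3102-3p and miR-6896-5p were -0.75 ± 0.36, -0.38 ± 0.20 and -0.33 ± 0.20 (all SE; edgeR adjusted p from 0.42 to 0.54). miR-3102-3p did not overlap between groups, at 34.7, 52.2, 49.2 and 46.9 CPM in knockouts and 74.9, 54.7 and 56.5 CPM in wild types, while its neighbour miR-3102-3p.2-3p overlapped, at -0.08 ± 0.18.

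Among the 10 most abundant members the interval of the difference was narrowest for the steadier ones. miR-3082-3p had a log2 fold change of 0.07 (95% interval -0.26 to 0.41), miR-3068-3p of 0.04 (-0.31 to 0.39) and miR-3059-5p of -0.02 (-0.44 to 0.40). miR-1983 had 0.26 (-0.10 to 0.61). miR-3099-3p, miR-3475-3p and miR-6944-3p, which varied more between libraries, had intervals of -0.59 to 0.52, -0.37 to 0.61 and -0.42 to 0.78, and miR-3065-3p one of -0.27 to 0.51. These 8 intervals lay within 1 of 0. Those of miR-5099, at 0.30 to 1.45, and miR-3963, at 0.01 to 1.09, passed 1.

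By kind of locus, edgeR called no member of any group, and DESeq2 called miR-3547-3p among the arms at intron ends. The 23 tested arms at intron ends had a median log2 fold change of 0.06, with 14 positive and 9 negative, and the 15 in other introns one of 0.14, with 8 and 7. The 9 members outside genes had a median of 0.30, with 7 positive and 2 negative. The 5 tested that lie only antisense to a gene had one of 0.32, with 4 and 1, and the 9 tested in other exons one of 0.22, with 5 and 4. The 6 tested in snoRNA or scaRNA genes had one of 0.05, with 4 and 2, and the 10 tested without a position one of 0.02, with 6 and 4. These counts by sign depend on the scaling, which with library totals alone made the 78 even, as given above. The median over all miRNAs tested was -0.02.

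The 17 members that were not tested had 50 to 75 reads each. Among them miR-6481, at chr3:99199367-99199385 on the minus strand and antisense to an intron of Wars2, had 55 of its 65 reads in knockout replicate 4 and none in any wild type library. All 17 overlapped between groups.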

How the data were processed

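For each of the 7 libraries the authors deposited a table of 66573 rows, each row a small RNA name and its read count as a whole number, without normalization. RNA was extracted by phenol/chloroform and made into TruSeq small RNA libraries, per the labels' protocols. Per the submitters' processing notes, bcl2fastq 2.17.1.14, DESeq2 and mm10 were used, without a stated role. Which aligner, counting tool and miRNA annotation served, and how reads matching several rows were treated, is not given in the sources used here. All 5 closing lines, which name no gene, had 0 reads and were left out. Reads carry no molecular identifiers, so the limits given for a count of 0 cover counting error only.

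Members are rows named mmu-miR- with a number of 1900 or higher and 50 or more reads over the libraries. The members, the marker lists and the tests were chosen with earlier results of these data known. Named are the 10 most abundant members, the 6 smallest p-values in each direction, both arms of hairpins with both arms at 50 reads, the 3 members and rows on either side of the read minimum, and members that share a seed. Other members were named as examples of a kind of locus after their values were seen.

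All mouse miRNA rows were tested together with edgeR 4.0.16 in R 4.3.3 (TMM scaling, filterByExpr by group with a minimum count of 10 and a minimum total of 15, robust quasi-likelihood test), with Benjamini-Hochberg adjustment and calls under 0.05. Since edgeR gives no SE, each SE was taken as the size of the log2 fold change divided by the square root of the test's F. The 95% intervals of the edgeR fold changes rest on these SEs and are approximate. Arm use was tested as log2((5p reads + 0.5)/(3p reads + 0.5)) with limma 3.58.1 in hairpins with 50 or more reads and at least 5 per arm. On simulated data edgeR called 98.9% of the rows changed by 2 on the log2 scale, with 5.1% of calls false. In a simulation of arm use, limma called 70% of 20 arm ratios changed by 2 on the log2 scale. Those 20 hairpins had sizeable shares of both arms, and added scatter between libraries was not simulated. Since 53 of the 68 member hairpins had more than 95% of their reads on 1 arm, the 70% does not carry over to them. The alternatives were DESeq2 1.42.0, limma-voom, 2 other scalings, 2 other filters, no robust estimation, other read minimums, and omission of libraries. No 2 libraries were alike (chi-square per degree of freedom 46.6 to 271).

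Sequences and positions come from the RefSeq miRNA table (GRCm38.p6, the build of mm10) and introns from GENCODE M21; an arm is at an intron end when its last base lies within 2 bases of it on the same strand.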

Additional observations from a re-analysis of the deposited data

Results flagged for a closer look

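Within the 4 knockout libraries, 96 values (each member and the summed level) were examined for a library far from the others, by the gap to its nearest neighbour as a share of the range, and 7 stood out. Chance alone gives about 1 in 20. In miR-3963 the share was 0.978, with knockout replicate 1 at 173 CPM and the others at 107 to 108 CPM. In miR-6481 it was 0.947, with 55 reads (14.2 CPM) in knockout replicate 4, at most 0.758 CPM in the other knockouts and no read in wild types. Knockout replicate 3, the shallowest library, was the highest in 4 members. These were miR-6540-3p (share 0.888, 10.5 CPM against 2.92 to 3.77 CPM), miR-3083-5p (0.878, 14.7 against 7.73 to 8.57 CPM), miR-6906-3p (0.866, 4.19 against 1.73 to 2.06 CPM) and miR-3087-3p (0.857, 7.33 against 6.11 to 6.28 CPM). In that library 1 read is worth 1.05 CPM. miR-1982-3p was low in knockout replicate 1 (share 0.839, 2.38 against 3.90 to 4.19 CPM). The cause of these values was not tested.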

How the results depend on the processing

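The number of members called was 0 in the edgeR fit and 1 with DESeq2, 2 without a filter on low counts, and 1 without knockout replicate 3 and wild type replicate 2 together. Leaving out each library in turn gave 0 to 1, the call being miR-3547-3p without wild type replicate 2. limma-voom, both other scalings, the filter of 10 CPM in 3 libraries and the fit without robust estimation each gave 0. The share of all miRNAs called is not given for these alternatives, so their counts of members have no background beside them. No member hairpin was called for arm use under any alternative. The log2 difference of the summed level, 0.14, was -0.026 without the most abundant member, miR-5099, and ran from 0.081 to 0.21 without each library. With a minimum of 100 or 25 reads there were 69 or 131 members.

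For the 28 named members tested, 380 of 401 values under 15 alternatives kept their direction, and 21 changed it. All 21 belong to members whose log2 fold change in the main edgeR fit lay within 0.25 of 0. The 21 include miR-3059-5p at 0.0054 without a filter, miR-3099-3p at 0.0022 with limma-voom and miR-3102-3p.2-3p at 0.08 without knockout replicate 3 and wild type replicate 2. With library totals alone miR-3068-3p was at -0.039 and miR-3082-3p at -0.0079. Leaving out each library in turn moved miR-3059-5p between -0.17 and 0.072, miR-3065-5p between -0.06 and 0.27, miR-3068-3p between -0.04 and 0.16, miR-3099-3p between -0.25 and 0.33, and miR-3102-3p.2-3p between -0.17 and 0.053. In the same way miR-3475-3p ran from -0.065 to 0.35, miR-6540-3p from -0.46 to 0.26, miR-6540-5p from -0.51 to 0.13, and miR-6944-3p from -0.065 to 0.46. The cause was not tested. No paired analysis was possible because the labels carry no replicate numbers that link a knockout to a wild type library. Depth limits the scarcer members: 26 of the 95 had under 100 reads.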
